A study of Mus musculus with 6 samples.

Results

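The core circadian clock of the liver was followed through 10 genes: *Arntl* (which encodes BMAL1), *Clock*, *Npas2*, *Per1*, *Per2*, *Per3*, *Cry1*, *Cry2*, *Nr1d1* (REV-ERBα) and *Nr1d2* (REV-ERBβ). They are 10 of the 56691 Ensembl genes in the deposited count table, found by matching gene IDs to symbols. The set was chosen by its measured values in these same libraries, because its levels followed a pattern that crossed the genotypes, so the values of the 10 genes are given as a description and carry no test. The liver RNA came from pregnant mice fed a high-fructose diet (HFrD) during pregnancy, and the study asked what loss of hepatocyte ChREBP, a sugar-sensing transcription factor encoded by *Mlxipl*, changed under that diet. The KPF group held 3 libraries (KPF 1, KPF 2 and KPF 3) of hChrebp-KO dams, made by crossing Chrebp flox/flox mice with Alb-Cre mice, in which the albumin promoter drives Cre in hepatocytes. The WPF group held 3 libraries (WPF 2, WPF 3 and WPF 4) of dams that the methods describe as Chrebp flox/flox without Cre and the sample labels as wild type. Dams of both groups were mated with Chrebp flox/flox males. Neither the age of the dams nor the hour of the day at which each liver was taken is given in the sources used here. The labels tell the dams apart by number only, so the error values below describe these samples. Standard errors of fold changes come from edgeR's quasi-likelihood fit, which shares information on spread across genes, and not from each gene's samples alone.

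The circadian clock is a feedback loop of transcription and translation that runs in nearly every cell with a period of about a day. BMAL1 pairs with CLOCK, or with the CLOCK relative NPAS2, and switches on genes that carry E-box sequences, among them the *Per* and *Cry* genes, whose protein products then shut the pair down. BMAL1 and CLOCK also switch on *Nr1d1* and *Nr1d2*, whose products compete with ROR activators at ROR response elements and repress *Arntl* and *Npas2*. In the mouse liver the RNA of *Arntl* and *Npas2* is therefore high at the opposite time of the day to that of *Nr1d1*, *Nr1d2*, *Per3* and *Dbp*, and the abundance of each depends on the hour of collection and on feeding.

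The elements through which this loop runs were looked up in RefSeq promoter windows (mouse build GRCm38.p6, 250 bases before to 50 bases after a transcription start), which held 9 of the 10 genes (*Per2* had none). Both strands were searched for the E-box CACGTG, the related E-prime-box CACGTT, the core TAGGTCA of a ROR response element (RORE) and the D-box TTATGNAA, where N is any base. Of all 32851 windows in that table, 7.15% held the E-box, 4.68% the E-prime-box, 2.61% the RORE core and 3.38% the D-box, and no match in the genes named here overlapped another. A RORE core lay in 1 window of *Arntl*, in bases just after its start, and in that of *Nfil3*, a D-box repressor of the accessory loop. The E-box was found in *Cry1* and *Per1*, and the E-prime-box in *Cry1*, *Cry2* and *Nr1d1*. Among the accessory genes with a window (7 of 9), *Ciart*, *Tef* and *Bhlhe41* held the E-box, and *Ciart* held 3 copies. *Per3* held 2 D-boxes and *Per1* held 1. A match is a description of the letters in the window and not evidence of binding. The windows of the core genes *Clock*, *Npas2* and *Nr1d2* and of the accessory genes *Dbp*, *Hlf* and *Rora* held none of these elements. The stretches below show matches of each kind that was found. They run 5′ to 3′ on the strand of the gene, with the element in capitals. AACGTG is CACGTT, and TGACCTA is TAGGTCA, read on the other strand.
Arntl, RORE core, plus strand, chr7:113207531-113207557: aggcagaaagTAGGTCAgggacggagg
Nfil3, RORE core, minus strand, chr13:52981040-52981061: cgctcggaacTGACCTActaac
Cry1, E-prime-box and E-box, minus strand, chr10:85185099-85185143: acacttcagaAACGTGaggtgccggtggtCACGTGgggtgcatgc
Per1, E-box, plus strand, chr11:69098768-69098803: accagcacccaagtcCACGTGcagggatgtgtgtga
Cry2, E-prime-box, minus strand, chr2:92434215-92434250: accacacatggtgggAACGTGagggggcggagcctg
Nr1d1, E-prime-box, minus strand, chr11:98775385-98775420: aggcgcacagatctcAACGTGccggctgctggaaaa
Ciart, E-box, minus strand, chr3:95882257-95882354: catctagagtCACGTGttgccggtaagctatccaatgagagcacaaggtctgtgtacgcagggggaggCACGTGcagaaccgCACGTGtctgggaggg
Tef, E-box, plus strand, chr15:81802531-81802566: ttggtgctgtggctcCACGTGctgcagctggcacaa
Per3, D-box, minus strand, chr4:151044806-151044880: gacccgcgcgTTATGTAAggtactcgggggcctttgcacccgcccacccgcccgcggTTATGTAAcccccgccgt

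The libraries held between 10694496 and 14496630 reads counted on genes, and levels below are in CPM, reads scaled to a common library size with edgeR's TMM factors. *Mlxipl* stood at 182, 709 and 860 CPM in KPF 1, KPF 2 and KPF 3 and at 974, 1277 and 891 CPM in WPF 2, WPF 3 and WPF 4. These counts cover the whole gene and not the deleted exon alone, so they are a weak check of the genotype. On the log2 scale *Mlxipl* differed by -0.84 with a standard error of 0.53 (KPF over WPF; adjusted p = 0.584, Benjamini-Hochberg, edgeR's quasi-likelihood test). The 5 hepatocyte markers (*Alb*, *Apoa1*, *Ttr*, *Fgb*, *Cyp3a11*) summed to between 79150 and 174300 CPM in every library. KPF 2 stood apart by RNA of skeletal muscle: 5 markers, none at 0 in every library, summed to 2861 CPM there and to between 1.55 and 11.9 CPM in the other libraries.

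The activators of the loop split each genotype. *Arntl* (ENSMUSG00000055116, GRCm39 chromosome 7, 112806672 to 112913333), the partner without which the loop does not run, was counted at 2.41, 1.08 and 26.6 CPM in KPF 1, KPF 2 and KPF 3. In WPF 2, WPF 3 and WPF 4 it stood at 21.2, 31.3 and 1.48 CPM. KPF 3, WPF 2 and WPF 3 were thus high and KPF 1, KPF 2 and WPF 4 low, with a 29.1-fold distance between the highest and the lowest library and nothing between 2.41 and 21.2 CPM. The group means differed far less than the libraries did, at -0.84 on the log2 scale (KPF over WPF, standard error 1.26).

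*Npas2* (ENSMUSG00000026077), the CLOCK relative that can take its place beside BMAL1, divided the libraries in the same way. It stood at 0.869, 0.0897 and 8.96 CPM in KPF 1, KPF 2 and KPF 3 and at 10.6, 23.0 and 0.415 CPM in WPF 2, WPF 3 and WPF 4. The lowest value rests on 1 read in KPF 2 against 323 reads in WPF 3, a 257-fold ratio whose 95% counting interval runs from 45.7 to 10200. *Clock* (ENSMUSG00000029238), the constant partner in textbook accounts, moved in the same direction over a narrower span, with 15.3, 12.5 and 31.7 CPM in the KPF libraries and 34.6, 28.2 and 16.6 CPM in the WPF libraries. Its highest library was 2.78-fold above its lowest. Log2 fold changes were -1.78 (standard error 1.46) for *Npas2* and -0.42 (standard error 0.41) for *Clock*, and for both genes the groups overlapped.

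**Figure D1:**
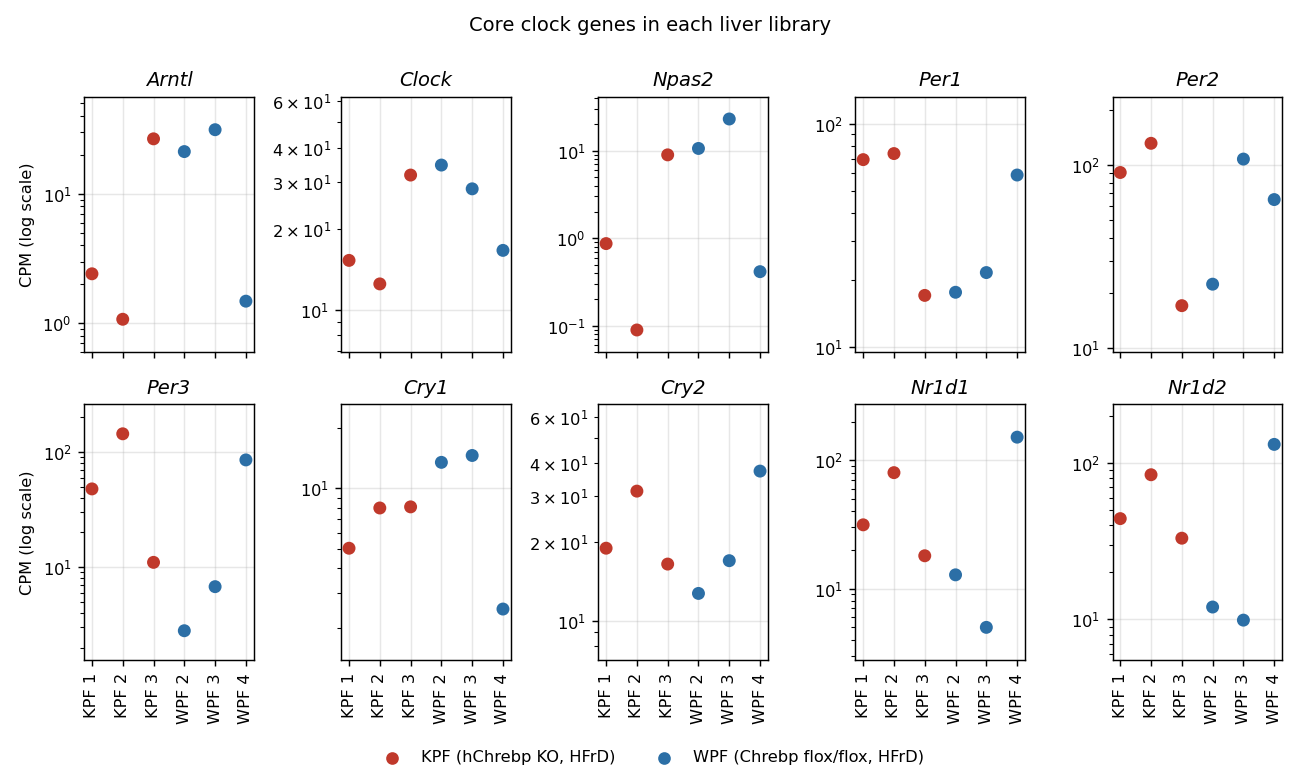
Levels of the 10 core clock genes in CPM (y axes, log scale, each panel with its own range) in each of the 6 liver libraries (x axis), with KPF in red and WPF in blue and 1 point per library. Arntl lies at 26.6, 21.2 and 31.3 CPM in KPF 3, WPF 2 and WPF 3 and at or below 2.41 CPM in the others, while Per1, Per3, Nr1d1 and Nr1d2 lie highest in KPF 1, KPF 2 and WPF 4.

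Among the period genes, whose products form the repressor complex, *Per1* (ENSMUSG00000020893) was the mirror image of *Clock*. It stood at 69.2, 73.7 and 17.0 CPM in KPF 1, KPF 2 and KPF 3 and at 17.6, 21.6 and 59.1 CPM in WPF 2, WPF 3 and WPF 4. *Per3* (ENSMUSG00000028957) had the widest span of the repressors, at 47.8, 143.9 and 11.0 CPM in the KPF libraries and 2.80, 6.76 and 85.3 CPM in the WPF libraries. The distance from WPF 2 to KPF 2 was 51.3-fold, and KPF 1, KPF 2 and WPF 4 were again set against the rest. The log2 fold change was 0.70 (standard error 0.63) for *Per1* and 1.09 (standard error 1.27) for *Per3*. In the deposited coordinates *Per3* lies within the span of *Camta1* on the same strand, which held 48 to 113 reads in the libraries.

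*Per2* (ENSMUSG00000055866) followed the other period genes in 5 libraries and departed from them in WPF 3. Its levels were 91.1, 131.6 and 17.0 CPM in KPF 1, KPF 2 and KPF 3 and 22.3, 107.9 and 64.8 CPM in WPF 2, WPF 3 and WPF 4. WPF 3, low in *Per1*, *Per3*, *Nr1d1* and *Nr1d2*, was the second highest library for *Per2*. Per exonic length, the log2 ratio of *Per2* to *Per1* was 2.27 in WPF 3 and lay between -0.06 and 0.78 in the others. The log2 fold change of *Per2* was 0.30 (standard error 0.76).

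The cryptochromes, the other arm of the repressor complex, took opposite sides. *Cry1* (ENSMUSG00000020038), which peaks later than the *Per* genes in mouse liver, stood at 5.02, 7.98 and 8.08 CPM in KPF 1, KPF 2 and KPF 3 and at 13.5, 14.6 and 2.49 CPM in WPF 2, WPF 3 and WPF 4. The KPF libraries lay close together, and the WPF libraries took both ends of the range. *Cry2* (ENSMUSG00000068742) stood at 18.9, 31.3 and 16.5 CPM in the KPF libraries and at 12.7, 17.0 and 37.3 CPM in the WPF libraries. KPF 1 was close to KPF 3 and WPF 3 for *Cry2*, so the gap seen for *Arntl* was not seen here. Log2 fold changes were -0.53 (standard error 0.59) for *Cry1* and -0.01 (standard error 0.43) for *Cry2*. Per exonic length, the log2 ratio of *Cry1* to *Cry2* ran from -2.99 in WPF 4 to 1.01 in WPF 2.

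The REV-ERB genes, nuclear receptors that repress *Arntl*, were most abundant in WPF 4. *Nr1d1* (ENSMUSG00000020889) was counted at 31.4, 80.1 and 18.0 CPM in KPF 1, KPF 2 and KPF 3 and at 12.8, 4.98 and 151.3 CPM in WPF 2, WPF 3 and WPF 4. Both the highest and the lowest library were WPF, 30.4-fold apart, and all 3 KPF libraries lay between them. *Nr1d2* (ENSMUSG00000021775) had the same order of libraries, with 44.0, 83.9 and 33.0 CPM in the KPF libraries and 12.0, 9.90 and 131.1 CPM in the WPF libraries. Log2 fold changes were -0.39 (standard error 1.14) for *Nr1d1* and 0.07 (standard error 0.94) for *Nr1d2*. The end of *Nr1d1* shares 1075 bases with *Thra* on the opposite strand, whose levels were 14.8, 32.6 and 15.9 CPM in the KPF libraries and 10.5, 8.90 and 58.5 CPM in the WPF libraries. The sources used here do not state whether counting used the strand, so reads in the shared bases cannot be told apart.

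Per exonic length, the mean level over the libraries (FPKM, counted reads scaled by exonic length and library total) was highest for *Nr1d1* at 17.2, followed by *Per2* at 12.6, *Nr1d2* at 10.1, *Per1* at 7.75 and *Per3* at 5.31. *Cry2*, *Cry1*, *Arntl*, *Clock* and *Npas2* followed at 3.60, 2.51, 1.79, 1.64 and 1.51 FPKM. Within each of these genes the libraries spread more widely than neighbouring means differed.

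Seen over all 45 pairs of these genes, Pearson's r of log2(CPM + 1) over the 6 libraries ran from -0.99 (*Clock* with *Per1*) to 0.98 (*Arntl* with *Npas2*). *Nr1d1* and *Nr1d2* had an r of 0.97. *Arntl* had an r of -0.97 with *Per1*, -0.94 with *Per3*, -0.90 with *Nr1d1*, -0.83 with *Cry2*, 0.75 with *Cry1* and -0.58 with *Per2*. These values are a description, because the libraries fall into separate sets for *Arntl* and the genes share library and depth. Without WPF 3 and KPF 2, the libraries farthest from the median of *Arntl*, r with *Per2* was -0.96 and r with *Per1* was -0.98. Without KPF 2, the library with muscle RNA, r of *Arntl* was 0.98 with *Npas2*, -0.96 with *Per1*, -0.92 with *Per3* and -0.88 with *Nr1d1*. The opposite arms are set side by side in the log2 ratio of *Arntl* to *Nr1d1* per exonic length. It was -4.99, -7.51 and -0.73 in KPF 1, KPF 2 and KPF 3 and -0.56, 1.36 and -7.96 in WPF 2, WPF 3 and WPF 4, a span of 9.32.

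**Figure D2:**
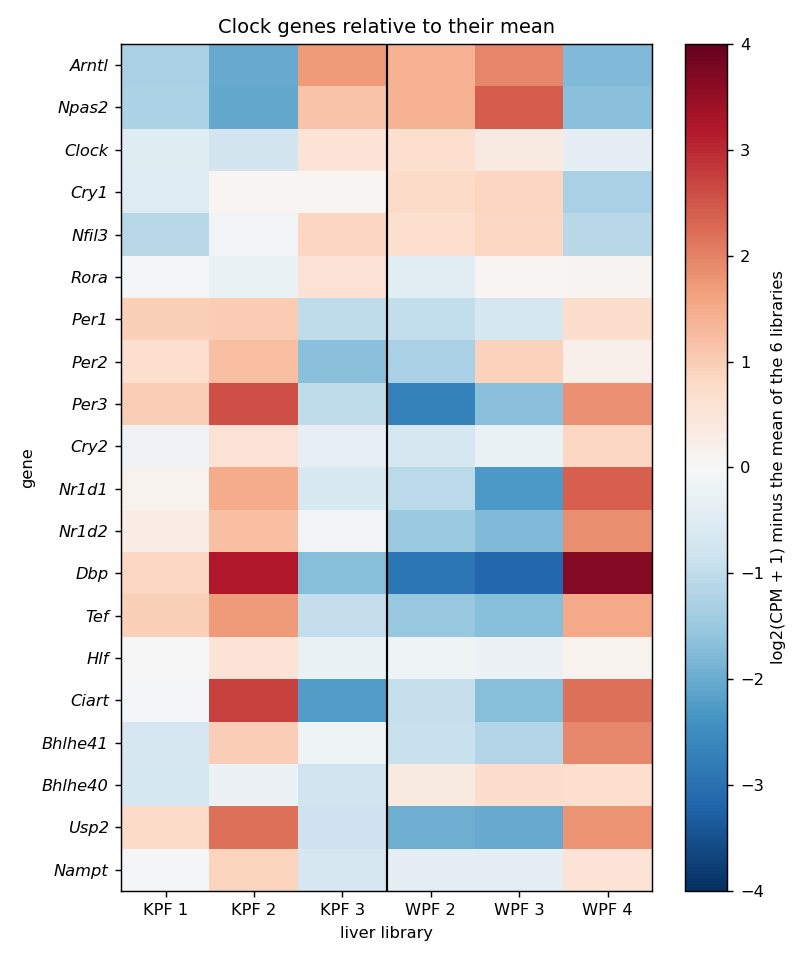
Deviation of log2(CPM + 1) from the mean of the 6 libraries (colour, red above and blue below the mean) for the core clock genes, 8 accessory clock genes, Usp2 and Nampt (rows) in each library (columns, with KPF left of the line and WPF right). Arntl, Npas2, Clock and Nfil3 are above their mean in KPF 3, WPF 2 and WPF 3, and Per1, Per3, Dbp, Tef and Usp2 are above theirs in KPF 1, KPF 2 and WPF 4.

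The likeness of whole libraries in these genes crossed the genotypes, the pattern for which the genes were chosen, and supports nothing further. Over the 10 genes, the mean absolute difference of log2(CPM + 1) was smallest between KPF 3 and WPF 2 (0.56), next between KPF 2 and WPF 4 (0.63), and largest between WPF 3 and WPF 4 (2.57). It averaged 1.69 over the 6 pairs of the same genotype and 1.52 over the 9 pairs of different genotypes. Over all 10866 tested genes the same averages were 0.47 and 0.51, with a range of 0.29 to 0.59. The pair WPF 3 and WPF 4, the farthest apart in clock genes, was at 0.45 over all tested genes.

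**Figure D3:**
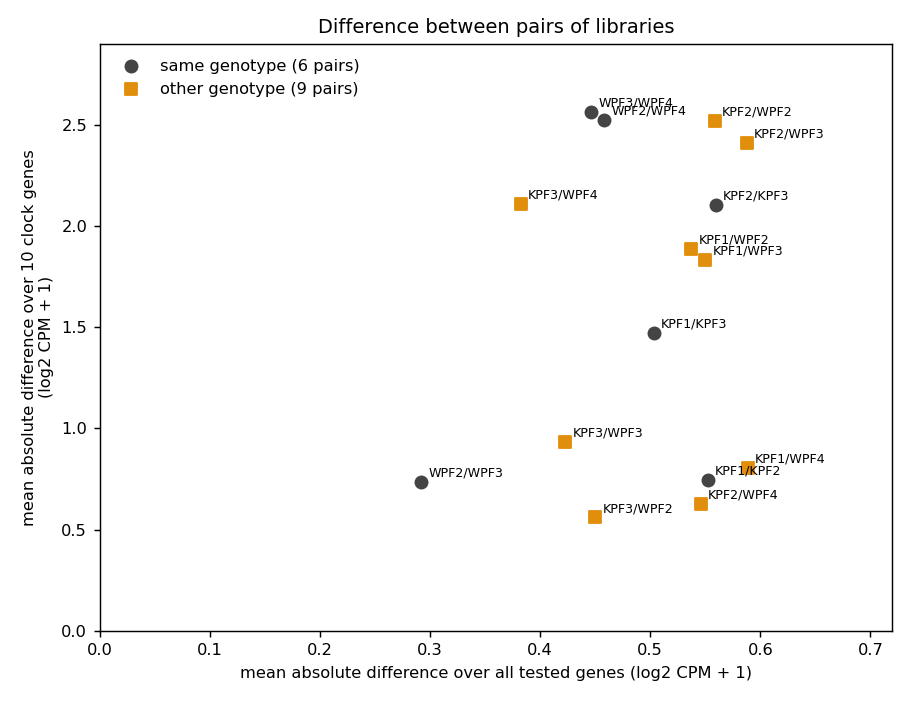
Each point is a pair of libraries, with the mean absolute difference of log2(CPM + 1) over all 10866 tested genes on the x axis and over the 10 core clock genes on the y axis; circles are pairs of the same genotype and squares pairs of different genotypes. WPF 3 with WPF 4 lies at the top (2.57) and KPF 3 with WPF 2 at the bottom (0.56), and both kinds of pair occur at high and low values.

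In the comparison of the genotypes, all 10 genes passed the filter (FPKM of 1 or more on average), and for all 10 the KPF and WPF values overlapped. Among all tested genes the groups did not overlap in 15.7%. Within groups, the core clock genes varied far more than most genes: the median SD of their log2 values was 1.42, against 0.32 over all tested genes. By this SD 4 of the 10 ranked in the first 100 and 8 in the first 1000 of 10866 genes (*Per3* 57, *Arntl* 71, *Npas2* 85 and *Nr1d1* 91). These ranks describe the spread that chose the genes and support nothing further.

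A single library decided the size of several fold changes. Without KPF 3, the log2 fold change of *Arntl* was -3.36 and that of *Npas2* -4.56. Without WPF 4 it was 2.28 for *Nr1d1*, 2.29 for *Nr1d2* and 3.80 for *Per3*, whereas without KPF 2 that of *Per3* was -0.11. *Per2* ran from -0.27 without KPF 2 to 0.87 without WPF 3. *Cry2* ran from -0.34 to 0.57. For *Clock* the range was -0.93 to -0.18, for *Cry1* -1.01 to -0.18 and for *Per1* 0.40 to 1.44, and these genes, with *Arntl* and *Npas2*, kept their sign under the alternatives tried.

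**Figure D4:**
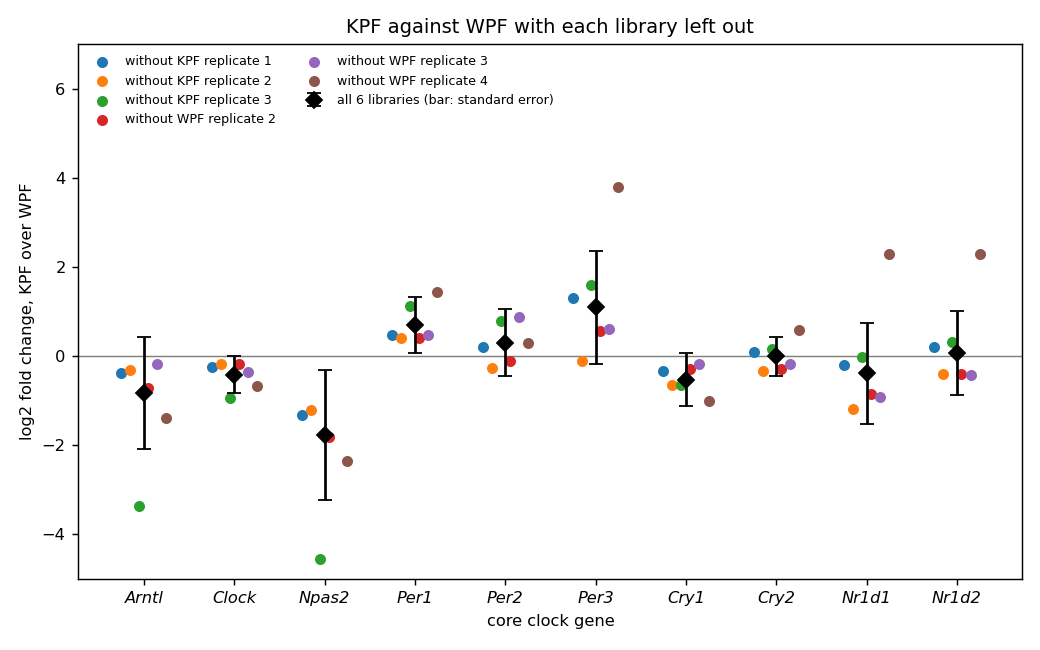
Log2 fold change of KPF over WPF (y axis) for each core clock gene (x axis); black diamonds are all 6 libraries with bars of 1 standard error, and coloured points leave out the library named in the legend. Leaving out KPF 3 moves Arntl to -3.36 and Npas2 to -4.56, and leaving out WPF 4 moves Nr1d1 to 2.28 and Per3 to 3.80 (Npas2 without WPF 3 is not drawn because it fell below the filter).

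The accessory loop around the core was read from a list of 9 genes, of which 8 were tested, and most of its rhythmic members divided the libraries as the core did. *Dbp* (ENSMUSG00000059824), a D-box activator and direct target of BMAL1 and CLOCK, stood at 38.8, 208.2 and 5.94 CPM in KPF 1, KPF 2 and KPF 3 and at 2.01, 1.57 and 288.4 CPM in WPF 2, WPF 3 and WPF 4. That is a 184.1-fold distance within the WPF group alone. On the log2 scale KPF differed from WPF by -0.21 with a standard error of 1.84 (adjusted p = 0.972, Benjamini-Hochberg, edgeR's quasi-likelihood test). *Dbp* shares 737 bases with *Sphk2* on the opposite strand.

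*Tef*, its D-box relative, stood at 222.1, 378.9 and 59.0 CPM in the KPF libraries and 39.8, 34.7 and 333.4 CPM in the WPF libraries. *Ciart*, a repressor of the BMAL1 and CLOCK pair that held 3 E-boxes above, stood at 6.76, 51.6 and 0.682 CPM and at 3.15, 1.42 and 35.3 CPM. Both genes were higher in KPF 2 and WPF 4 than in any other library, and for *Ciart* KPF 1 stood nearer to WPF 2 than to KPF 2. *Nfil3*, the D-box repressor with a RORE core as in *Arntl*, ran the other way, with 6.08, 13.3 and 27.0 CPM in the KPF libraries and 23.5, 26.2 and 6.11 CPM in the WPF libraries. *Hlf*, another D-box activator, lay between 13.0 and 23.8 CPM.

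*Rora*, an activator at ROR response elements, did not share the division. It lay between 14.6 and 30.5 CPM, with an r of 0.29 with *Arntl*. Fold changes of *Tef* (0.69, standard error 0.97), *Ciart* (0.56, standard error 1.45), *Nfil3* (-0.27, standard error 0.64), *Hlf* (0.23, standard error 0.27) and *Rora* (0.19, standard error 0.29) on the log2 scale did not pass the test.

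The groups did not overlap in 15.7% of all tested genes and in 1 of the 8 tested accessory genes. That gene was *Bhlhe40*, an E-box repressor also known as DEC1. It stood at 12.1, 17.1 and 11.2 CPM in KPF 1, KPF 2 and KPF 3 and at 26.5, 33.6 and 33.1 CPM in WPF 2, WPF 3 and WPF 4, so that the groups did not overlap and KPF was lower. It fell by 1.21 on the log2 scale (standard error 0.23, unadjusted p = 0.000963, adjusted p = 0.416, Benjamini-Hochberg, edgeR's quasi-likelihood test), and its call held in all 13 alternatives tried. Its r with *Arntl* was 0.11. Genes were called where the unadjusted p was under 0.05 and the groups differed at least 1.5-fold, by which 5.83% of all tested genes were called higher and 3.98% lower in KPF. No gene had an adjusted p under 0.05 in edgeR, 1176 had an unadjusted p under 0.05, and DESeq2 gave 156 with an adjusted p under 0.05. With library totals in place of TMM the median log2 fold change of all genes moved by 0.14, and the split of 634 higher to 432 lower genes became 371 to 716. *Nr1d2* was the core clock gene whose sign turned with that scaling.

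Of the 47 companion clock genes in 4 lists (the accessory loop, kinases and ligases, coregulators and liver outputs), 43 were tested, 3 were called higher and 2 lower in KPF. Over all tested genes 5.83% were called higher and 3.98% lower, so these counts lie near those shares and are no result about the companions. The median log2 fold change of the companions was 0.08, against 0.02 over all tested genes. None of the 15 tested kinases, ligases and stability factors was called, a list that includes the casein kinases and F-box proteins that set the lifetime of PER and CRY. Its widest ranges were those of *Usp2*, a deubiquitinase with a strong daily rhythm in liver, and *Fbxl21*, an F-box protein that binds CRY. *Usp2* stood at 45.4, 122.9 and 14.4 CPM in the KPF libraries and at 6.04, 5.77 and 93.8 CPM in the WPF libraries, the division seen for *Per3*. *Fbxl21* lay between 5.70 and 15.6 CPM, highest in KPF 2.

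Among 12 coregulators *Sirt1* was called lower and *Timeless* higher. *Sirt1*, an NAD-dependent deacetylase, stood at 5.99, 9.14 and 9.83 CPM in the KPF libraries and 10.9, 14.4 and 15.6 CPM in the WPF libraries (log2 difference -0.71, SE 0.27, adjusted p = 0.438, Benjamini-Hochberg, edgeR's quasi-likelihood test). *Timeless*, whose product acts mainly in DNA replication in mammals, stood at 38.8, 18.9 and 30.9 CPM against 12.2, 19.7 and 16.7 CPM, with overlap (log2 difference 0.86, SE 0.31, adjusted p = 0.430 in the same test). The call of *Sirt1* was lost in 5 of 13 alternatives and that of *Timeless* in 7 of 13.

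Of the 8 tested liver outputs *Noct* and *Alas1* were called higher. *Noct*, a rhythmic phosphatase of NADP(H), stood at 133.1, 210.5 and 183.5 CPM in the KPF libraries and 26.1, 59.4 and 118.3 CPM in the WPF libraries, without overlap (log2 difference 1.37, SE 0.51, adjusted p = 0.430, Benjamini-Hochberg, edgeR's quasi-likelihood test). *Alas1*, the rate-limiting enzyme of haem synthesis, stood at 175.3, 719.2 and 64.8 CPM and at 63.7, 56.8 and 123.4 CPM (log2 difference 1.98, SE 0.81, adjusted p = 0.453 in the same test). The value of *Alas1* rests on KPF 2 and was 0.56 without it. The call of *Noct* was lost in 5 of 14 alternatives and that of *Alas1* in 8 of 14.

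Of the tested companions, 2 had an r of 0.8 or more with *Arntl* (*Nfil3* and *Ncor1*), where 4.03% of all tested genes did. An r of -0.8 or less was found for 8 (*Dbp*, *Tef*, *Hlf*, *Ciart*, *Csnk1e*, *Usp2*, *Alas1* and *Nampt*), where 3.4% of all tested genes reached it. Among the other core clock genes the counts were 2 and 5 of 9, which the choice of the genes fixed. The limit of 0.8 was set after the data were seen, and *Arntl* was itself among the genes chosen by their values. The companion counts are therefore a description too.

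The genes most like *Arntl* were taken from 2312 genes whose mean FPKM was 5 or more and whose libraries spanned at least 2-fold. They were *Gm11843* (r = 0.99), *Ppard* (0.99), *Clpx* (0.97), *Itga5* (0.96) and *Dtx4* (0.96) over the 6 libraries. *Ppard*, a nuclear receptor of fatty acid metabolism, stood at 15.3, 14.1 and 58.3 CPM in the KPF libraries and at 65.6, 85.1 and 15.1 CPM in the WPF libraries. Most opposite were *Snord118* (-0.99), *Snord13* (-0.99), *Tef* (-0.98), *Per1* (-0.97) and *Herpud1* (-0.97). *Snord13* stood at only 0.39 to 1.61 CPM over the libraries, so its r rests on few reads. *Snord118* is a small nucleolar RNA gene of 135 bases with 13 to 143 reads, 21656 bases from *Per1* on chromosome 11. *Herpud1*, a gene of the endoplasmic reticulum stress response, stood at 168.4, 141.6 and 53.7 CPM in the KPF libraries and at 59.6, 41.0 and 195.7 CPM in the WPF libraries.

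Genes of feeding and of glucocorticoids, cues that can set the liver clock, were read beside the core. None of 9 glucocorticoid-responsive genes was called. The 2 with the widest range were *Mt2*, at 71.0, 192.8 and 140.6 CPM in the KPF libraries and 173.0, 54.1 and 632.8 CPM in the WPF libraries, and *Dusp1*, at 4.63, 10.6 and 14.3 CPM and at 13.9, 25.6 and 5.64 CPM. Of 11 fasting and feeding genes, *Pck1*, the gluconeogenic carboxykinase, was called higher and *Fasn* and *Scd1*, enzymes of fatty acid synthesis and desaturation, lower.

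*Pck1* stood at 270.0, 1744 and 326.2 CPM in KPF 1, KPF 2 and KPF 3 and at 200.5, 131.1 and 318.1 CPM in WPF 2, WPF 3 and WPF 4, so that the groups overlapped and KPF 2, the library with muscle RNA, stood far above the rest. The log2 difference was 1.85 (SE 0.75, adjusted p = 0.453, Benjamini-Hochberg, edgeR's quasi-likelihood test) and 0.46 without KPF 2. Its call was lost in 6 of 14 alternatives, among them those without KPF 2, WPF 2 or WPF 3. *Fasn* stood at 148.8, 178.3 and 163.6 CPM in KPF 1, KPF 2 and KPF 3 and at 2574, 2113 and 244.5 CPM in WPF 2, WPF 3 and WPF 4. *Scd1* stood at 226.2, 97.6 and 205.4 CPM and at 5756, 7998 and 348.9 CPM. WPF 4, the WPF library with low *Arntl*, was thus the WPF library with low *Fasn* and *Scd1*, whereas KPF 3, with high *Arntl*, was low in both. Log2 fold changes were -3.33 (standard error 0.77) for *Fasn* and -4.74 (standard error 1.05) for *Scd1*, both with an adjusted p of 0.416 in the same test.

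Markers of other cell types were set beside the division of the libraries. KPF 1 and WPF 4 had the low *Arntl* and high *Per3* of KPF 2 with muscle markers summed to 1.55 and 3.15 CPM. Adipose markers summed to 40.9 and 60.2 CPM in KPF 1 and KPF 2, to 9.93 CPM in KPF 3 and to between 4.99 and 11.9 CPM in the WPF libraries, with 3 of the 5 under 5 CPM in every library. Mesothelial markers (4) summed to 14.1, 14.5 and 3.99 CPM in KPF 1, KPF 2 and KPF 3 and to at most 6.98 CPM in WPF, the level in WPF 4 being 2.32 CPM. The sums ran from 3.77 to 15.2 CPM for pancreatic markers, from 80.4 to 157.3 CPM for macrophage and lymphocyte markers and from 84.5 to 191.2 CPM for stellate and endothelial markers. Some single markers also differed between the groups, beside the companion genes called above. *Col1a1*, a collagen gene of stellate cells and fibroblasts, stood at 31.2, 24.7 and 10.3 CPM in the KPF libraries and at 4.73, 6.76 and 2.73 CPM in the WPF libraries (log2 difference 2.22, SE 0.48, adjusted p = 0.416, Benjamini-Hochberg, edgeR's quasi-likelihood test). *Pecam1*, an endothelial adhesion gene, stood at 14.5, 18.1 and 12.9 CPM against 9.11, 8.54 and 9.44 CPM (log2 difference 0.75, SE 0.22, adjusted p = 0.430 in the same test). Neither overlapped between the groups, and both were called higher. So were all 5 muscle markers, 2 of 2 tested adipose markers and 1 of 2 tested mesothelial markers. The other stellate and endothelial markers were not called and went both ways. *Stab2* was lower in KPF without overlap, at 25.97, 26.89 and 31.06 CPM against 33.45, 35.96 and 41.72 CPM (log2 difference -0.41, SE 0.19). With overlap, *Lrat* was lower (log2 difference -0.35) and *Dcn* higher (0.80). The muscle calls rest on KPF 2, and the groups overlapped for all 5. *Acta1* stood at 498.3 FPKM in KPF 2 and at 1.95 FPKM or less elsewhere. *Cfd*, *Msln* and *Col1a1* reached the filter through KPF libraries, with at most 0.17, 0.77 and 1.1 FPKM in WPF. The direction of these calls was thus partly set by the filter. Of the 5 hepatocyte markers *Cyp3a11* was called lower, and none of the tested pancreatic (1) or macrophage and lymphocyte (3) markers was called. The part of these markers in the clock pattern and in the calls was not tested. In RNA of whole liver, fewer cells of a type and less RNA per cell cannot be told apart.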

How the data were processed

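RNA was extracted from liver with Trizol, and poly(A) libraries were sequenced. Per the labels, the submitters' processing notes name cutadapt 1.9.1, HISAT2 2.2.1, HTSeq 0.6.1, DESeq2 and GRCm39. The authors deposited read counts per gene and FPKM values, which equal the count over exonic length and counted reads. Symbols were matched for 52073 of 56691 gene IDs. Coordinates of the table were not combined with RefSeq windows, which are on GRCm38.p6.

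KPF was compared with WPF by edgeR 4.0.16 (R 4.3.3, quasi-likelihood test, TMM factors 0.888 to 1.18, Benjamini-Hochberg) on the 10866 genes averaging 1 FPKM or more. CPM are relative to the reads on these genes, 98.5% to 99% of all. The fit was tested on simulated data. DESeq2 1.42.0 and limma 3.58.1 were alternatives. Correlations used log2(CPM + 1). No libraries of a group were duplicates (chi-square per gene at least 49.1).

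The clock genes, the lists and the tests were chosen with earlier results of these data known. Named were all 10 clock genes, 7 accessory genes (of which 1 is not reported here) and *Bhlhe40*, every called gene of the other lists (the 2 of widest range where none was called), and the 5 genes most like and 5 most opposite to *Arntl*. Intervals cover counting error only.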

Additional observations from a re-analysis of the deposited data

How the results depend on the processing

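With 3 dams a group, an exact permutation test cannot go below 0.1. Fold changes of the clock genes turned sign in 4 of 13 alternatives for *Cry2*, 4 of 14 for *Nr1d1*, 4 of 14 for *Nr1d2*, 3 of 14 for *Per2* and 1 of 14 for *Per3*. *Npas2* without WPF replicate 3 fell below the filter. The log2 span of *Arntl* over *Nr1d1* was 6.56 on log2(FPKM + 1). The alternatives for *Pck1*, *Fasn*, *Scd1*, *Col1a1* and *Pecam1* were chosen after seeing the data. The call of *Pecam1* was lost in 3 of 13 and those of *Fasn*, *Scd1* and *Col1a1* in none. The count of 10 companions with an r of 0.8 or more in size was 11 with library totals and 10 with FPKM or Spearman's rho. For each change listed next, the cause was not tested.

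Against 634 higher and 432 lower genes, library totals gave 371 and 716, log2(FPKM + 1) in limma 237 and 540, so that lower calls outnumbered higher ones, log2(FPKM + 0.1) 288 and 700 likewise, no filter 1576 and 910, and a minimum FPKM of 5 255 and 205. Genes with an adjusted p under 0.05 numbered 156 in DESeq2 and 286 with no filter, against 0. Companions called higher (3) numbered 0 with library totals and 1 with log2(FPKM + 1), log2(FPKM + 0.1) or a minimum FPKM of 5. Companions called lower (2) numbered 4 with log2(FPKM + 0.1) and 0 with a minimum FPKM of 5. Leaving out each library gave 331 to 922 higher, 245 to 712 lower, 0 to 5 with an adjusted p under 0.05 (5 without WPF replicate 4), and 0 to 6 companions higher (0 without WPF replicate 2, 1 without KPF replicate 3 or WPF replicate 3, 6 without WPF replicate 4) and 1 to 4 lower (1 without KPF replicate 1 or WPF replicate 3, 4 without KPF replicate 3).

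Replicate numbers 2 and 3 occur in both groups but stand for different dams, and the deviations of same-numbered libraries had correlations of 0.035 and -1.86e-05, so they were not taken as pairs. KPF 1 and WPF 4 have no same-numbered library in the other group, so a replicate block takes no difference from them. With that block, which thus compares KPF 2 and KPF 3 with WPF 2 and WPF 3, 9 companions were called higher and 1 lower.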

Other observations

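Values of 2 more genes from the lists are given here, chosen after they were seen. *G6pc*, the last enzyme of glucose release, stood at 5.41, 13.3 and 56.0 CPM in KPF 1, KPF 2 and KPF 3 and at 113.4, 332.1 and 4.57 CPM in WPF 2, WPF 3 and WPF 4, with an r of 0.91 with *Arntl*. *Rgs16*, a regulator of G-protein signalling with a daily rhythm in liver, did not share the division and stood at 4.34, 25.2 and 0.292 CPM in the KPF libraries and at 58.6, 41.0 and 39.2 CPM in the WPF libraries, with 3 reads in KPF 3. On the log2 scale it differed by -2.21 with a standard error of 1.05 (KPF over WPF; adjusted p = 0.487, Benjamini-Hochberg, edgeR's quasi-likelihood test).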
